A study of Arabidopsis thaliana with 24 samples.

Results

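The CONSTANS-like B-box genes described here were 10 Arabidopsis thaliana genes, CO (AT5G15840), COL1 (AT5G15850), COL2 (AT3G02380), COL3 (AT2G24790), COL4 (AT5G24930), COL5 (AT5G57660), BBX14 (AT1G68520), BBX15 (AT1G25440), BBX16 (AT1G73870) and COL9 (AT3G07650). They were picked by gene identifier from the deposited expression table, by no threshold on their values but with earlier results of these data known. All 10 had values, among 17952 genes with values in a table of 37336 genes. Messenger RNA was sequenced from 24 samples of 10 pooled seedlings each, 3 independent replicates in each of 8 groups. The groups combined Col-0 wild type (WT) or sig5-3 (SALK_141383C), a T-DNA line of the nuclear gene SIG5 for a sigma factor of the plastid RNA polymerase, with 4 °C or 19 °C and with a pair of time sets. All plants grew for 11 days at 19 °C with a photoperiod of 12 h and then spent 24 h in continuous light. In the first set chilling started at zeitgeber time 27 (ZT27, hours after dawn) and lasted 5 h, and in the second it started at ZT45 and lasted 3 h, each beside unchilled seedlings at 19 °C of both genotypes. Start and length of chilling changed together and cannot be told apart, so ZT27 and ZT45 below name whole time sets. The labels give a time set for the 19 °C controls but not the hour at which they were sampled. For genes under clock control, a chilling value therefore includes any difference in the hour of sampling between chilled and control seedlings, and a 19 °C time set value cannot be tied to exact hours.

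CONSTANS-like proteins are plant transcription regulators with 1 or more zinc-binding B-box domains near the start of the protein and a CCT domain near its end, which takes part in DNA binding. CO, the founding member, is transcribed in phloem companion cells of leaves under control of the circadian clock, and its protein, stable in the light of long-day evenings, activates the florigen gene FT. CO, COL1 to COL5 and COL9 have a pair of B-boxes, whereas BBX14, BBX15 and BBX16 have a single one.

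Values are normalized read abundances, scaled by the authors to each library. Most low values were whole multiples of a step per library, so the values were taken as not divided by gene length. Depth was estimated at 21275989 to 36441425 reads per library, counted over genes with values. CO rested on 87 to 441 estimated reads per library, which limits the precision of its smaller differences. SIG5 in sig5-3 stood at 14.2% to 22.6% of the WT mean of the same condition. The samples were seedlings, and mesophyll, phloem companion cell and root markers were all detected (4 of 4, 3 of 3 and 3 of 5 listed genes had values). COBL9 and WER, the other root markers listed, were among the genes without values. Among the chilled sig5-3 libraries of the ZT27 set, replicate 1 stood apart from its group, with a root mean square deviation of 0.263 on the log2 scale against at most 0.17 in each other library, and results that turn on it are given without it as well. In such bulk samples, fewer cells of a type and less RNA per cell cannot be told apart. A gene passed in a comparison when its adjusted p in limma (Benjamini-Hochberg over 17952 genes) was under 0.05. Every log2 fold change was taken at log2(value + 0.5) and carries a standard error (SE), while group means carry standard deviations (SD, n = 3).

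Chilling changed most of the family, in opposite directions for different members. In the WT ZT27 set 5 members rose, 2 fell and 3 did not pass, where 27.6% of all genes rose and 28.9% fell. In the WT ZT45 set 5 rose, 4 fell and 1 did not pass, where 20.2% of all genes rose and 15.5% fell. Of these members, 3 in the ZT27 set and 4 in the ZT45 set also exceeded 1.5 in size on the log2 scale, the study's own threshold, against 4.64% and 1.27% of all genes. The median member changed by 0.23 in the ZT27 set and by 0.42 in the ZT45 set, beside medians of -0.01 and 0.03 over all genes. COL1, COL2, BBX16 and COL9 rose in both WT sets, BBX14 and BBX15 fell in both, and COL5 rose in one and fell in the other. The plot of levels in every library shows these patterns.

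**Figure D1:**
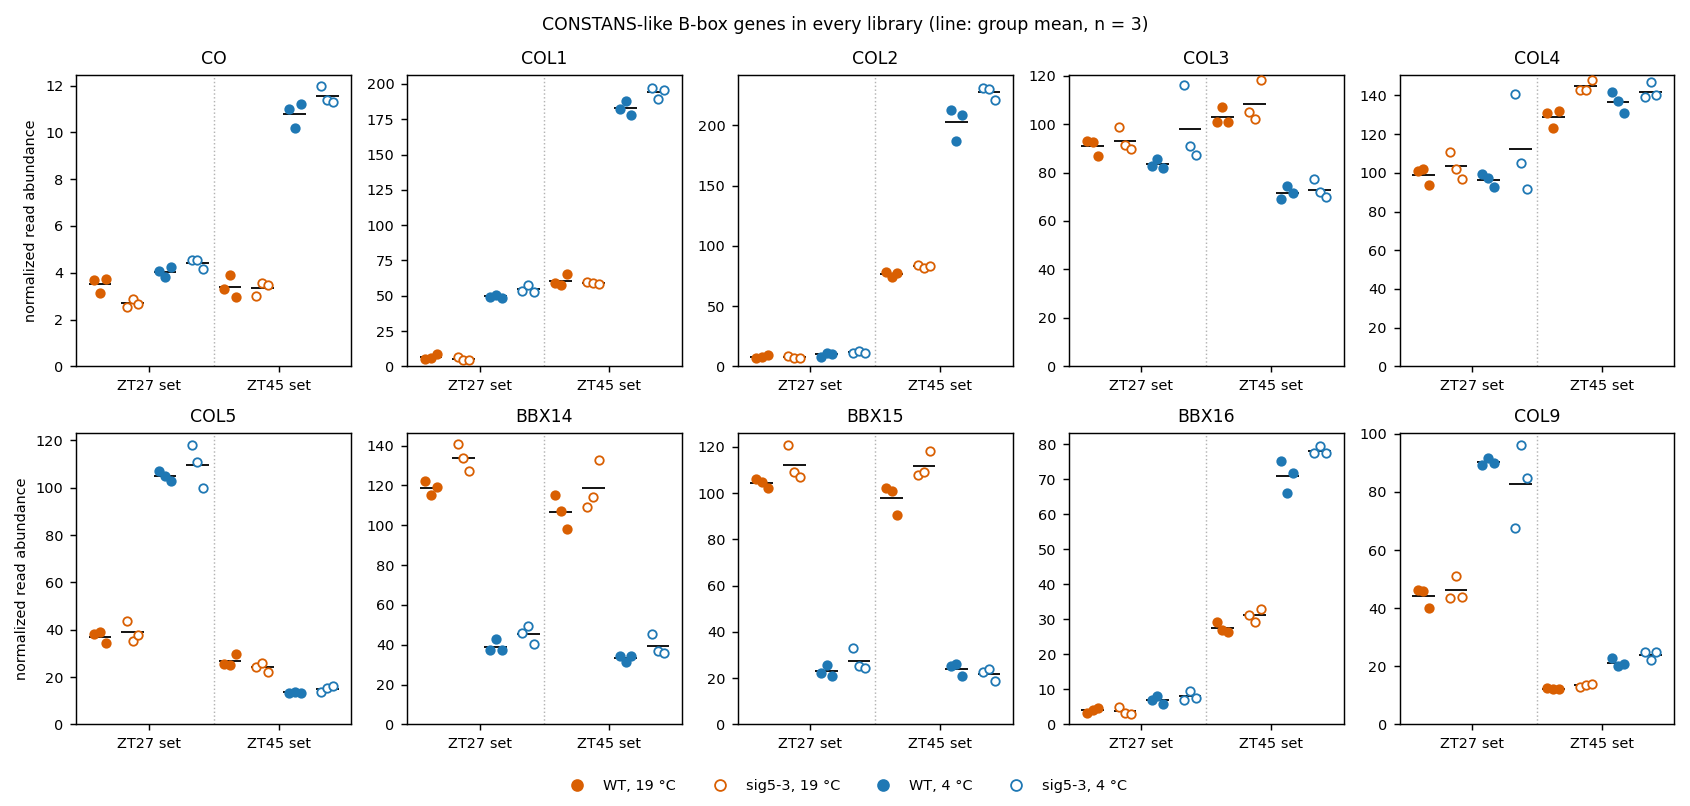
Normalized read abundance (vertical axes, each from 0) of the 10 genes in each of the 24 libraries, grouped by time set, with WT as filled and sig5-3 as open circles, 19 °C in orange and 4 °C in blue. Horizontal lines are means of 3 libraries. COL1, COL2 and BBX16 reach their highest level in the chilled ZT45 set, COL5 and COL9 in the chilled ZT27 set, and BBX14 and BBX15 are low in every chilled group.

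CO itself was barely above its unchilled level in the WT ZT27 set and about 3 times as abundant after chilling in the ZT45 set. Unchilled WT libraries of the ZT45 set read 3.32, 3.92 and 2.97 and the chilled ones 11.0, 10.2 and 11.2, so every chilled library stood far above every unchilled one. The mean was 10.8 ± 0.508 against 3.4 ± 0.477, a ratio of 3.17 and a log2 fold change of 1.54 ± 0.10 (adjusted p = 4.6e-12). Its unchilled WT libraries of the ZT27 set read 3.71, 3.12 and 3.72 and the chilled ones 4.08, 3.82 and 4.25. These ranges did not overlap either, but the change of 0.18 ± 0.10 did not pass (adjusted p = 0.11, 95% interval -0.01 to 0.38). In sig5-3, CO rose in both sets, by 0.62 ± 0.10 in the ZT27 set (adjusted p = 4.9e-06) and by 1.65 ± 0.10 in the ZT45 set (adjusted p = 1.2e-12). The sig5-3 ZT27 libraries read 2.54, 2.87 and 2.65 at 19 °C and 4.54, 4.54 and 4.16 at 4 °C. The ZT45 response of CO exceeded the ZT27 response by 1.36 ± 0.13 in WT (adjusted p = 3.2e-08) and by 1.03 ± 0.13 in sig5-3 (adjusted p = 2e-06).

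Beside the rise of CO in chilled WT of the ZT45 set, the summed level of the 3 companion cell markers (SUC2, APL and FTIP1) ran from 93.92 to 100.5 at 4 °C and from 100.9 to 104.1 at 19 °C. None of these 3 markers passed in that comparison. In the sig5-3 ZT27 set, where CO also rose, that sum ran from 102.8 to 149.6 at 4 °C and from 95.45 to 112.7 at 19 °C. There SUC2 changed by 0.16 and APL and FTIP1 each by 0.14, and none passed (limma adjusted p = 0.23, 0.18 and 0.1). In the sig5-3 ZT45 set the sum was 99.17 to 103.7 at 4 °C and 110.5 to 122.2 at 19 °C, with FTIP1 lower when chilled (-0.22, limma adjusted p = 0.027). In the WT ZT27 set it was 101.5 to 103.7 at 4 °C and 95.59 to 114.3 at 19 °C, and 1 of the 3 markers passed as lower. In WT, the summed level of the 3 detected root markers was 63.33 to 71.13 at 4 °C and 47.19 to 52.96 at 19 °C in the ZT45 set, and 30.15 to 33.11 against 38.3 to 39.19 in the ZT27 set. That of the 4 mesophyll markers in WT was 36145 to 37281 at 4 °C and 39015 to 41319 at 19 °C in the ZT45 set, and 36171 to 38885 against 25054 to 31125 in the ZT27 set. The part of these markers in the changes of the family was not tested.

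COL1 and COL2 are the closest relatives of CO, with transcripts that cycle with the clock and peak near dawn, and overexpression of COL1 can shorten the circadian period. COL1 lies in tandem with CO on the minus strand of chromosome 5, with CO at chr5:5170162-5173085 and COL1 at chr5:5176091-5177897 (TAIR10.1), 3005 bases apart and with 0 annotated genes wholly between them. COL2 is at chr3:487069-489467, also on the minus strand. The 250 bases before the annotated start of these neighbours are shown because the genes adjoin each other and differ in their response in the ZT27 set (RefSeq annotation of TAIR10.1, minus strand, chr5:5173086-5173335 for CO and chr5:5177898-5178147 for COL1). Capitals mark the 2 runs of at least 10 identical bases, both 11 bases long, that the pair shares:
CO: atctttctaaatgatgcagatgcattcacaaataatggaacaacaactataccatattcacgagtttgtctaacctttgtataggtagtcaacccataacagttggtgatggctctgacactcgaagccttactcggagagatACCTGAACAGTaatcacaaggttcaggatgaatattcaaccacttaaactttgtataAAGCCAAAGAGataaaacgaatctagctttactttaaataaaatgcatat
COL1: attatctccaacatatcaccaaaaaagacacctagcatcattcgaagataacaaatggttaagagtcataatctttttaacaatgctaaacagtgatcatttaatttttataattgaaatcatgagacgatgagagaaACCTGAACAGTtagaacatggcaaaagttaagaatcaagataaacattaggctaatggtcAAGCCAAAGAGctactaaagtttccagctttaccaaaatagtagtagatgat
These runs began 107 and 50 bases before the start of CO, and 112 and 52 bases before the start of COL1. Outside the capitals the stretches held no identical run of 10 bases.

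COL1 had the widest range of the family, its group means spanning 39.3-fold. In WT of the ZT27 set it read 5.1, 5.68 and 8.45 at 19 °C and 49.4, 50.4 and 48.7 at 4 °C. In WT of the ZT45 set it read 58.8, 57.4 and 65.1 at 19 °C and 182, 188 and 178 at 4 °C. Chilled and unchilled libraries never overlapped within a set, while chilled libraries of the ZT27 set lay below unchilled ones of the ZT45 set. Chilling raised COL1 by 2.88 ± 0.13 in the WT ZT27 set (7.72-fold, adjusted p = 4.5e-14) and by 1.59 ± 0.13 in the WT ZT45 set (3.03-fold, adjusted p = 3.9e-09). Among 17952 genes, the ZT27 increase ranked 106 from the highest. In sig5-3 the increases were 3.37 ± 0.13 (11.1-fold, adjusted p = 2.8e-15) and 1.71 ± 0.13 (3.29-fold, adjusted p = 1.2e-09). The response was smaller in the ZT45 set than in the ZT27 set, by 1.29 in WT (difference -1.29 ± 0.19, adjusted p = 1.6e-05) and by 1.66 in sig5-3 (difference -1.66 ± 0.19, adjusted p = 5.1e-07). On the log2 scale, COL1 and its neighbour CO thus differed between the sets in opposite directions. In level, COL1 too rose more in the WT ZT45 set (mean 60.4 to 183) than in the WT ZT27 set (6.41 to 49.5).

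COL2 stood at a much higher level in the ZT45 set than in the ZT27 set. In WT of the ZT27 set it read 7.31, 7.55 and 9.44 at 19 °C and 8.13, 11.2 and 10.4 at 4 °C, and these ranges overlapped. The WT libraries of the ZT45 set read 78.5, 74.2 and 77.6 at 19 °C and 213, 187 and 209 at 4 °C, with no overlap. The ZT45 increase was 1.40 ± 0.10 (2.65-fold, adjusted p = 7e-11). The ZT27 increase of 0.27 ± 0.10 passed (adjusted p = 0.023), but it no longer passed without WT 19 °C ZT27 replicate 1 (0.21, adjusted p = 0.12) or replicate 2 (0.23, 0.092), without WT 4 °C ZT27 replicate 2 (0.18, 0.16) or replicate 3 (0.23, 0.085), or with only the compared groups in the model (0.27, 0.079). In sig5-3, COL2 rose by 0.59 ± 0.10 in the ZT27 set (adjusted p = 1.9e-05) and by 1.45 ± 0.10 in the ZT45 set (adjusted p = 3.7e-11). The difference between the sets was 1.13 ± 0.14 in WT (adjusted p = 1.2e-06) and 0.86 ± 0.14 in sig5-3 (adjusted p = 4.4e-05).

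The promoter of COL2 is shown because it held a match to the evening element, a motif read by clock-related MYB factors (RefSeq TAIR10.1, minus strand, chr3:489468-489717). Capitals mark the motif AAAATATCT, which began 189 bases before the annotated start:
COL2: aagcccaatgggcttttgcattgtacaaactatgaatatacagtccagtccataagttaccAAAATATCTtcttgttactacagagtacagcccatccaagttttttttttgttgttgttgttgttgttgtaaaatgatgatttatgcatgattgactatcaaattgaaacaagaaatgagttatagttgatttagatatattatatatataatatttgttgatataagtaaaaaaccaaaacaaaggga
A window of 250 bases before to 50 bases after the start was searched on both strands for that motif, the CCA1-binding site AAAAATCT, the G-box CACGTG and the CRT/DRE core CCGAC. No member had AAAAATCT in it. COL4 had CACGTG, 169 bases before the start, and COL3 and COL5 had CCGAC, 189 and 179 bases before it. CO, COL1, BBX14, BBX15, BBX16 and COL9 had none of the 4 in that window. Over 17951 promoters of genes with values, AAAATATCT was present in 3.08%, AAAAATCT in 8.18%, CACGTG in 8.85% and CCGAC in 16.5%. AAAATATCT does not contain AAAAATCT, nor CACGTG the core CCGAC. A match is a description of the letters only.

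BBX16, also called COL7 and known for a part in shoot branching in the shade, followed a course much like that of COL2 at a lower level. In WT of the ZT27 set it read 3.32, 4.1 and 4.68 at 19 °C and 7.07, 7.99 and 5.96 at 4 °C. Its WT libraries of the ZT45 set read 29.2, 27 and 26.5 at 19 °C and 75.2, 66.2 and 71.7 at 4 °C. All chilled libraries exceeded all unchilled ones of their set. The increases were 0.73 ± 0.14 (1.74-fold, adjusted p = 9.9e-05) and 1.35 ± 0.14 (2.57-fold, adjusted p = 6.2e-08) in WT, and 1.03 ± 0.14 (adjusted p = 1e-06) and 1.31 ± 0.14 (adjusted p = 9.4e-08) in sig5-3. The larger response of BBX16 in the ZT45 set (difference 0.62 ± 0.19, adjusted p = 0.021) was lost without WT 19 °C ZT27 replicate 3 (0.52, adjusted p = 0.066), WT 4 °C ZT27 replicate 3 (0.51, 0.068) or WT 4 °C ZT45 replicate 1 (0.58, 0.052). In sig5-3 that difference was 0.28 ± 0.19 and did not pass (adjusted p = 0.31), though it passed with a pseudocount of 2 (0.45, adjusted p = 0.03).

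BBX14 and BBX15 were the members that fell with chilling in every genotype and time set. In WT, BBX14 read 122, 115 and 119 at 19 °C and 37.2, 42.7 and 37.3 at 4 °C in the ZT27 set. In the ZT45 set it read 115, 107 and 98.3 at 19 °C and 34.5, 31.3 and 34.4 at 4 °C. Every chilled library was thus below every unchilled one in both sets. Its changes were -1.59 ± 0.09 (3.04-fold lower, adjusted p = 2.5e-13) and -1.66 ± 0.09 (3.2-fold lower, adjusted p = 5.9e-13) in WT, and -1.56 ± 0.09 and -1.58 ± 0.09 in sig5-3 (adjusted p = 3.2e-13 and 1.3e-12). BBX15 read 106, 105 and 102 at 19 °C and 22.3, 25.8 and 21 at 4 °C in the WT ZT27 set. In the WT ZT45 set its libraries read 102, 101 and 90.4 at 19 °C and 25.3, 26.2 and 20.8 at 4 °C. BBX15, too, showed no overlap between temperatures, and its fall was the steepest among the 10 members. The related gene BBX17, which is not one of them, fell further in both WT sets, as given below. BBX15 changed by -2.16 ± 0.11 (4.52-fold lower, adjusted p = 5.3e-14) and -2.00 ± 0.11 (4.05-fold lower, adjusted p = 1e-12) in WT, and by -2.02 ± 0.11 and -2.34 ± 0.11 in sig5-3 (adjusted p = 1.6e-13 and 6.4e-14). Among all 17952 genes, BBX15 ranked 84 from the lowest in the WT ZT27 set and 29 from the lowest in the WT ZT45 set. For neither gene did the response differ detectably between sets. The WT difference was -0.07 for BBX14 (95% interval -0.33 to 0.20) and 0.16 for BBX15 (-0.16 to 0.47), and in sig5-3 it was -0.02 (-0.29 to 0.24) and -0.32 (-0.63 to 0.00), so differences of the sizes within those intervals are not excluded.

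The 250 bases before the annotated starts of BBX14 and BBX15 are shown because the pair moved together and because, of the 45 pairs that the members form, theirs held the longest identical run (15 bases) and the most runs of at least 10 bases (4). Both lie on the minus strand of chromosome 1 in TAIR10.1, BBX14 at chr1:25708175-25710989 and BBX15 at chr1:8933716-8935544, and the stretches from RefSeq are chr1:25710990-25711239 and chr1:8935545-8935794. Capitals mark the 4 shared runs, of 11, 12, 15 and 11 bases:
BBX14: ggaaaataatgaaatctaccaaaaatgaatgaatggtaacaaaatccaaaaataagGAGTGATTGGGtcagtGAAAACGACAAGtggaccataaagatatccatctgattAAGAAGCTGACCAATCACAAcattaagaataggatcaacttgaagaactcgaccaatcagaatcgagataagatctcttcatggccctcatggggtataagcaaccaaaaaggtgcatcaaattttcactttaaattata
BBX15: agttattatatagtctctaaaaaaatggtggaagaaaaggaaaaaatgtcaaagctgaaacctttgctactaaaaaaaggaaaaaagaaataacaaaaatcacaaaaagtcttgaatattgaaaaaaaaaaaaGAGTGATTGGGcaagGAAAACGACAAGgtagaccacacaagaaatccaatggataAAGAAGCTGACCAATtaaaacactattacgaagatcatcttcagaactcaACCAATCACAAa
The runs came in the same order in both promoters. In BBX14 they began 194, 178, 140 and 131 bases before the start, the last of them overlapping the one before, and in BBX15 they began 117, 102, 62 and 12 bases before it. The next longest run in any member pair was 12 bases, between COL4 and COL5 and between COL4 and COL9. Whether other gene pairs share as much was not tested.

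**Figure D2:**
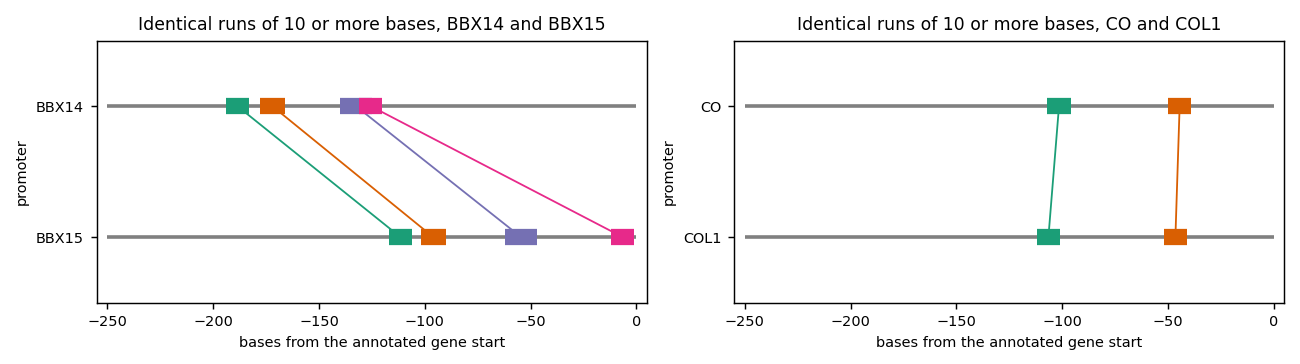
Positions of identical runs of at least 10 bases (coloured blocks joined by lines) in the 250 bases before the annotated start of BBX14 and BBX15 (left) and of CO and COL1 (right); the horizontal axis counts bases from the start. BBX14 and BBX15 share 4 runs in the same order, spread over a longer stretch in BBX15, while CO and COL1 share 2 at nearly equal distances from the start.

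COL5, which can promote flowering in short days when overexpressed, was the member whose response to chilling turned round between the sets. In WT of the ZT27 set it read 38.2, 38.9 and 34.3 at 19 °C and 107, 105 and 103 at 4 °C. Its libraries of the WT ZT45 set read 25.7, 25.1 and 29.9 at 19 °C and 13.4, 13.7 and 13.4 at 4 °C. Chilled libraries were all higher in the former and all lower in the latter. COL5 rose by 1.49 ± 0.09 in the WT ZT27 set (2.82-fold, adjusted p = 2.4e-13) and fell by 0.96 in the WT ZT45 set (-0.96 ± 0.09, 1.99-fold lower, adjusted p = 2.8e-09). In sig5-3 it rose by 1.49 ± 0.09 (adjusted p = 2e-13) and changed by -0.66 ± 0.09 (adjusted p = 1.4e-06). The difference between the responses was -2.45 ± 0.12 in WT (adjusted p = 1.6e-13), which ranked 54 from the lowest among 17952 genes, and -2.14 ± 0.12 in sig5-3 (adjusted p = 1.2e-12).

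COL9, whose overexpression delays flowering, rose with chilling in all 4 comparisons. Its WT libraries of the ZT27 set read 46.2, 45.8 and 40.1 at 19 °C and 89.3, 91.6 and 90 at 4 °C. Those of the ZT45 set read 12.5, 12.2 and 12.3 at 19 °C and 22.7, 20.2 and 20.8 at 4 °C. Temperatures did not overlap within a set, and the unchilled ZT27 libraries stood above the chilled ZT45 ones. The increases were 1.03 ± 0.09 (2.05-fold, adjusted p = 6.4e-10) and 0.76 ± 0.09 (1.72-fold, adjusted p = 3.4e-07) in WT, and 0.83 ± 0.09 (adjusted p = 2.8e-08) and 0.80 ± 0.09 (adjusted p = 1.4e-07) in sig5-3. In the sig5-3 ZT27 set the chilled libraries spread from 67.5 in the replicate that stood apart to 84.8 and 96.2 in the others, and without that replicate the increase was 0.96 (adjusted p = 4.1e-12). The WT difference between sets, -0.27 ± 0.13, did not pass (adjusted p = 0.13), but it passed without sig5-3 4 °C ZT27 replicate 1 (-0.27, adjusted p = 0.026) and with only the WT groups in the model (-0.27, adjusted p = 0.016).

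COL3, a positive regulator of photomorphogenesis that interacts with COP1, and COL4, a repressor of flowering, varied least. Their highest group means were 1.51 and 1.5 times their lowest. COL3 ranged from 86.9 to 93.2 at 19 °C and from 82 to 85.4 at 4 °C in the WT ZT27 set, and from 101 to 107 and from 68.9 to 74.5 in the WT ZT45 set. It fell in the ZT45 set, by 0.52 in WT (-0.52 ± 0.08, adjusted p = 1.2e-05) and by 0.57 in sig5-3 (-0.57 ± 0.08, adjusted p = 3.2e-06). In the ZT27 set its WT change of -0.12 ± 0.08 did not pass (adjusted p = 0.19, 95% interval -0.28 to 0.04), though it did with only the compared groups in the model (-0.12, adjusted p = 0.043). The sig5-3 ZT27 change was 0.06 ± 0.08 and turned to -0.06 without the replicate that stood apart, in which COL3 read 116 against 91.1 and 87.4 in the others. The difference between the sets passed in WT (-0.39 ± 0.11, adjusted p = 0.0094) and in sig5-3 (-0.63 ± 0.11, adjusted p = 9.6e-05).

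COL4 passed in none of the 4 chilling comparisons. Its libraries ranged from 93.8 to 102 at 19 °C and from 92.8 to 99.3 at 4 °C in the WT ZT27 set, and from 123 to 132 and from 131 to 142 in the WT ZT45 set, with overlap in both. The WT changes were -0.04 ± 0.09 (95% interval -0.23 to 0.15) and 0.08 ± 0.09 (-0.11 to 0.28). In sig5-3 they were 0.10 ± 0.09 (-0.09 to 0.29) and -0.03 ± 0.09 (-0.22 to 0.16). The sig5-3 ZT27 value depended on single libraries, at -0.07 without replicate 1 at 4 °C (COL4 read 141 there, against 105 and 91.7) and 0.24 (adjusted p = 0.019) without replicate 3 at 4 °C. Changes within these intervals cannot be told from no change at this precision.

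**Figure D3:**
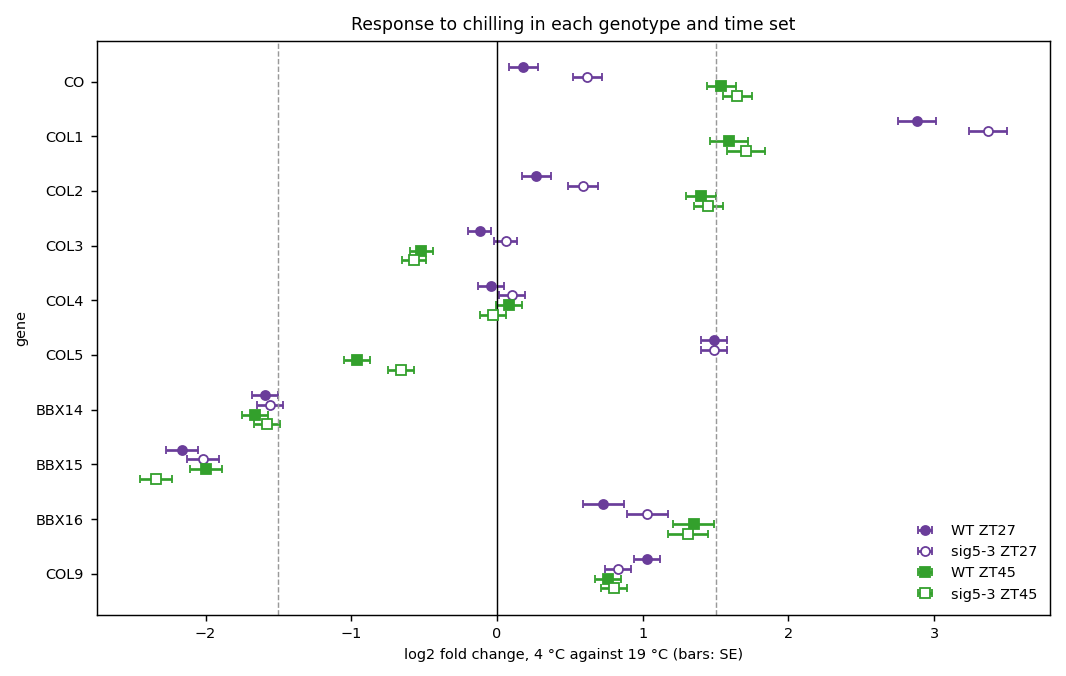
Log2 fold change of 4 °C against 19 °C (horizontal axis, bars SE) for each gene in WT (filled) and sig5-3 (open), with the ZT27 set in purple circles and the ZT45 set in green squares; dashed lines mark 1.5 in either direction. COL5 lies at 1.49 in the ZT27 set and below 0 in the ZT45 set, CO and COL1 differ between sets in opposite directions, and the 4 values of BBX14 lie together, as do those of BBX15.

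The response to chilling differed between the sets for 6 members in WT (CO, COL1, COL2, COL3, COL5 and BBX16), where 26.3% of all genes differed. In sig5-3 it differed for 5 (the same without BBX16), against 29.3% of all genes. For COL4, BBX14, BBX15 and COL9 no difference passed in either genotype.

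In sig5-3 the count of members was close to that in WT. In the ZT27 set 6 rose, 2 fell and 2 did not pass, where 29.6% of all genes rose and 30.4% fell. In the ZT45 set 5 rose, 4 fell and 1 did not pass, where 17.9% of all genes rose and 17.4% fell. Log2 changes over 1.5 in size were found for 3 and 4 members, against 5.01% and 1.43% of all genes. Comparing the genotypes directly, no member passed in any of the 4 conditions. The member differences between sig5-3 and WT ran from -0.34 to 0.17 at 19 °C and from -0.14 to 0.24 at 4 °C in the ZT27 set, and from -0.15 to 0.19 and from -0.15 to 0.23 in the ZT45 set. Of all genes, 0.0111%, 7.44%, 0.039% and 0.0279% passed in these 4 conditions. Unadjusted p-values were under 0.05 for 2, 5, 0 and 1 of the 10 members, and for 5.6%, 26.9%, 9.63% and 3.23% of all genes. The count at 4 °C in the ZT27 set depended on single libraries. Without sig5-3 4 °C ZT27 replicate 3, COL3 (0.30, adjusted p = 0.018), COL4 (0.34, 0.014) and BBX14 (0.28, 0.048) passed, and without replicate 2 of that group, COL3 (0.27, 0.033) and COL9 (-0.25, 0.046) did. Without replicate 1, the library that stood apart, no member passed. COL3 then went from 0.22 to 0.10 (limma adjusted p = 0.4) and COL4 from 0.20 to 0.02 (0.87). BBX14 stood at 0.19 (0.32) and COL9 at -0.00, while COL1, COL2 and BBX16 went up, to 0.16, 0.29 and 0.27.

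Averaged over the 4 conditions, BBX14 alone passed, at 0.19 ± 0.05 higher in sig5-3 (adjusted p = 0.015, 95% interval 0.10 to 0.28), where 6.39% of all genes passed. Its sig5-3 libraries at 19 °C read 141, 134 and 127 in the ZT27 set and 109, 114 and 133 in the ZT45 set, and at 4 °C 45.7, 49.5 and 40.3 and then 45.5, 36.7 and 36.1. Group means of BBX14 were 1.11 to 1.18 times those of WT, with overlap between the genotypes in 2 of the 4 conditions. COL4 joined it without sig5-3 4 °C ZT27 replicate 3 (0.15, adjusted p = 0.015). Without replicate 1 of that group, which stood apart, COL4 was at 0.08 (limma adjusted p = 0.091) and BBX14 at 0.19 (0.019). All 4 mesophyll markers were also higher in sig5-3 on average and passed, with a median of 0.19, and their part in the difference of BBX14 was not tested. The genotype difference in the chilling response ran from -0.21 to 0.48 over the members in the ZT27 set and from -0.34 to 0.31 in the ZT45 set. No member and, in limma, 0% of all genes passed for it in either set. Unadjusted p-values were under 0.05 for 3 and 2 of the 10 members, and for 9.93% and 3.6% of all genes. A p that misses the threshold does not show that the genotypes responded alike.

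Between the time sets, 3 members were much higher in the ZT45 set at both temperatures and 2 were lower. At 19 °C in WT, 4 members were higher in the ZT45 set, 2 were lower and 4 did not pass, where 19.9% of all genes were higher and 21.5% lower. COL2 differed by 3.18 ± 0.10 (9.48-fold, adjusted p = 6.9e-18), COL1 by 3.17 ± 0.13 (9.42-fold, adjusted p = 1.5e-14) and BBX16 by 2.64 ± 0.14 (6.84-fold, adjusted p = 2.6e-13). These genes ranked 34, 35 and 61 from the highest among 17952. COL4 was higher by 0.38 ± 0.09 (adjusted p = 0.0022). COL9 was lower in the ZT45 set (-1.79 ± 0.09, 3.57-fold lower, adjusted p = 2.9e-14), as was COL5 (-0.46 ± 0.09, adjusted p = 0.0001). CO differed by -0.04 ± 0.10 (95% interval -0.24 to 0.15), and its sign turned without WT 19 °C ZT45 replicate 3 (0.04). COL3 (0.18 ± 0.08, adjusted p = 0.074), BBX14 (-0.16 ± 0.09, 0.18) and BBX15 (-0.09 ± 0.11, 0.53) did not pass, and COL3 did without sig5-3 4 °C ZT27 replicate 1 (0.18, adjusted p = 0.0099) or with only the compared groups (0.18, adjusted p = 0.016).

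At 4 °C in WT, 5 members were higher in the ZT45 set, 4 were lower and 1 did not pass, where 28.3% of all genes were higher and 24.1% lower. Among the 17952 genes, COL2 (4.30 ± 0.10, 20.5-fold, adjusted p = 1.4e-20) ranked 2 from the highest and BBX16 (3.26 ± 0.14, 10.1-fold, adjusted p = 4.8e-15) ranked 12. COL1 differed by 1.87 ± 0.13 and CO by 1.31 ± 0.10 (adjusted p = 8.2e-11 and 2.4e-11). COL5 (-2.91 ± 0.09, 7.75-fold lower, adjusted p = 6.4e-19) and COL9 (-2.06 ± 0.09, 4.25-fold lower, adjusted p = 1.5e-15) were lower. Smaller differences were those of COL4 (0.50 ± 0.09, adjusted p = 9.1e-05), COL3 (-0.22 ± 0.08, adjusted p = 0.023) and BBX14 (-0.22 ± 0.09, adjusted p = 0.044). COL3 was lost without WT 4 °C ZT27 replicate 2 (-0.20, adjusted p = 0.071) or WT 4 °C ZT45 replicate 1 (-0.19, 0.083). BBX14 was lost without WT 4 °C ZT27 replicate 2 (-0.16, adjusted p = 0.21), without replicate 1, 2 or 3 of WT 4 °C ZT45 (-0.25, -0.18 and -0.24, adjusted p = 0.055, 0.16 and 0.057), and just missed without sig5-3 19 °C ZT27 replicate 2 (adjusted p = 0.051) or WT 19 °C ZT45 replicate 2 (0.05). BBX15 did not pass (0.06 ± 0.11).

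In sig5-3, 8 members passed between the sets at 19 °C and 9 at 4 °C, against 42.5% and 51.4% of all genes. COL2 (3.37 ± 0.10 at 19 °C and 4.22 ± 0.10 at 4 °C), COL1 (3.48 ± 0.13 and 1.82 ± 0.13) and BBX16 (2.94 ± 0.14 and 3.22 ± 0.14) were again higher. COL5 (-0.67 ± 0.09 and -2.82 ± 0.09) and COL9 (-1.74 ± 0.09 and -1.76 ± 0.09) were again lower. CO was higher by 0.27 ± 0.10 at 19 °C (adjusted p = 0.027), a call lost without sig5-3 19 °C ZT27 replicate 1 or 3 (0.23 and 0.26, adjusted p = 0.093 and 0.064), without sig5-3 19 °C ZT45 replicate 2 or 3 (0.23 and 0.24, 0.1 and 0.087) or with only the compared groups (0.064). At 4 °C CO was higher by 1.30 ± 0.10 (adjusted p = 3.1e-11). COL4 was higher in both (0.48 ± 0.09 and 0.36 ± 0.09, adjusted p = 0.00016 and 0.0027), the latter lost with only the compared groups (adjusted p = 0.093). Without sig5-3 4 °C ZT27 replicate 1, the library that stood apart, the 4 °C value of COL4 was 0.53 (limma adjusted p = 3.3e-08). COL3 was higher at 19 °C (0.21 ± 0.08, adjusted p = 0.029) and lower at 4 °C (-0.41 ± 0.08, adjusted p = 8.7e-05). Its 19 °C call was lost without sig5-3 19 °C ZT27 replicate 2 or 3 (0.20 and 0.19, adjusted p = 0.085 and 0.1) or ZT45 replicate 3 (0.15, 0.18). BBX15 passed at 4 °C alone (-0.32 ± 0.11, adjusted p = 0.016), and not without sig5-3 4 °C ZT27 replicate 1 (-0.18, 0.14), without sig5-3 4 °C ZT45 replicate 3 (-0.22, 0.12) or with only the compared groups (0.12). BBX14 passed at neither temperature (-0.18 ± 0.09 and -0.20 ± 0.09), but did at 19 °C without ZT45 replicate 3 (-0.26, adjusted p = 0.035) and at 4 °C without ZT27 replicate 3 (-0.28, 0.019) or ZT45 replicate 1 (-0.30, 0.0088).

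**Figure D4:**
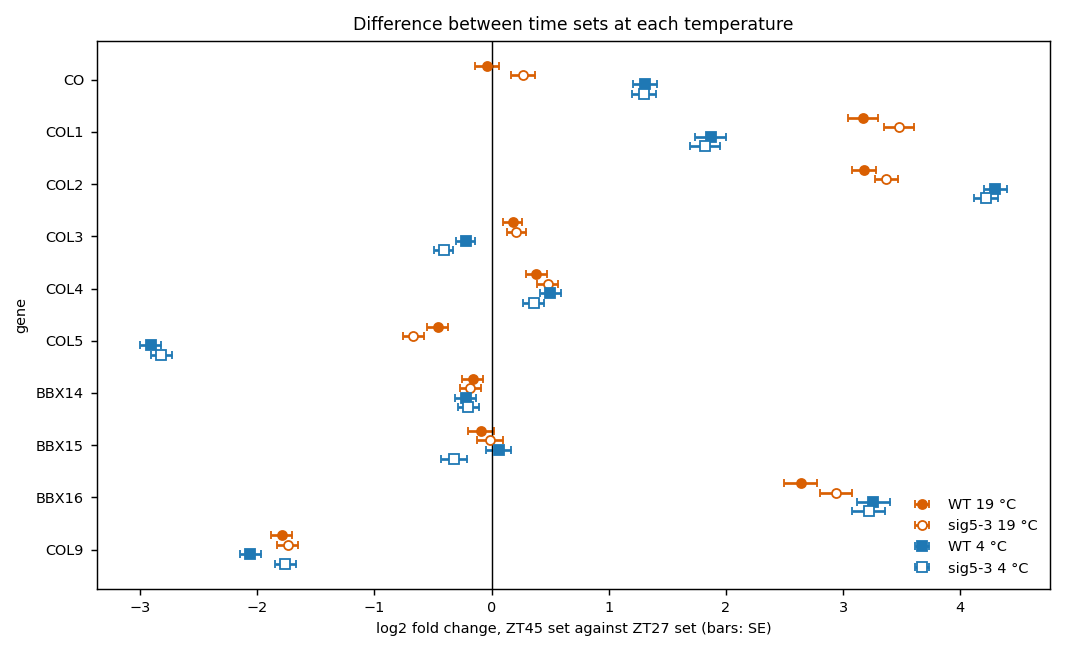
Log2 fold change of the ZT45 set against the ZT27 set (horizontal axis, bars SE) for each gene, at 19 °C in orange circles and at 4 °C in blue squares, with WT filled and sig5-3 open. COL1, COL2 and BBX16 lie far to the right and COL9 to the left at both temperatures, while CO stands clearly right of 0 at 4 °C and COL5 far left at 4 °C.

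Over the 8 groups, the order of levels differed among members. CO, COL1, COL2 and BBX16 had their highest means in chilled sig5-3 and chilled WT of the ZT45 set, in that order, although none of these genotype differences passed. COL5 was highest in the chilled ZT27 groups of sig5-3 (110 ± 9.22) and WT (105 ± 2.12), which overlapped, and COL9 in those of WT (90.3 ± 1.2) and sig5-3 (82.8 ± 14.4), which overlapped too. BBX14 and BBX15 had their 4 unchilled groups on top, from 107 to 134 and from 97.7 to 112, and their 4 chilled groups below, from 33.4 to 45.2 and from 21.8 to 27.5. Per kilobase of the longest annotated transcript, CO was the lowest member in all 8 groups, from 1 to 4.31, and COL4 stood between 88.6 and 133. COL4 is annotated at its coding length of 1089 bases only, so its level per kilobase is not on quite the same basis. Pattern likeness was measured as the root mean square difference of log2 group means over 8 groups, each gene centred on its own mean. The nearest member pairs were BBX14 with BBX15 (0.29), COL3 with COL4 (0.32) and COL2 with BBX16 (0.41). However, 8664 genes were nearer to COL3 than COL4 was, against 27 nearer to BBX14 than BBX15 and 16 nearer to BBX16 than COL2.

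Among 13849 other genes with a mean of at least 5, the nearest pattern to COL1 was that of F3H (0.26), which encodes flavanone 3-hydroxylase of flavonoid synthesis, followed by AT3G51238 (0.27), which overlaps F3H in coordinates. RVE1, a clock-related MYB factor gene, was second nearest to BBX16 (0.26) after AT1G65870 (0.22), a gene that was also second nearest to COL2 (0.45) after AT2G27420 (0.28). XBAT31 (0.09) and RCI2A (0.13) were nearest to COL9, and PSAH2 (0.04), a photosystem I subunit gene, and AT5G14840 (0.07) to COL3. For CO they were AT5G24460 (0.13) and AT1G01390 (0.22), and for COL4 AT1G71500 (0.03) and AT2G27680 (0.04). For COL5 they were AT3G45260 (0.18) and AT1G49230 (0.22). For BBX14 they were AT4G02540 (0.12) and AT1G72820 (0.15), and for BBX15 AT5G44680 (0.14) and AT2G41870 (0.23). Small differences for COL3 and COL4 come with their narrow ranges.

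Genes related to the family by descent or by their place in the CO pathway were counted in the same WT chilling comparisons. Over all genes, 27.6% rose and 28.9% fell in the ZT27 set, with a median of -0.01. In the ZT45 set 20.2% rose and 15.5% fell, with a median of 0.03. Of 7 other CONSTANS-like genes, 5 had values. BBX8 (2.69 in the ZT27 set and 1.72 in the ZT45 set), BBX11 (2.20 and 1.75) and BBX13 (1.11 and 0.38) rose in both sets. BBX17, which like BBX14 to BBX16 has a single B-box, fell in both (-3.36 and -2.43), from a mean of 7.82 to 0.312 in the ZT27 set and from 4 to 0.341 in the ZT45 set. BBX12 did not pass (-0.05 and -0.16). The median over these 5 was 1.11 in the ZT27 set and 0.38 in the ZT45 set. BBX8, BBX11 and BBX13 shared with COL9 both the rise with chilling and a lower level in the unchilled ZT45 set. All 5 passed as lower there, against 21.5% of all genes.

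Of 12 regulators of CO transcription, 8 rose, 2 fell and 2 did not pass in the ZT27 set, with a median of 0.58. In the ZT45 set 8 rose, 1 fell and 3 did not pass, with a median of 0.47. The shares of all genes that rose were 27.6% and 20.2%, and of those that fell 28.9% and 15.5%. FKF1, a blue-light-sensing F-box protein that removes CDF repressors, rose by 2.01 in the ZT27 set and by 3.57 in the ZT45 set, there from a mean of 0.685 ± 0.184 to 13.5 ± 1.27. GI, the partner of FKF1, rose by 2.25 and 0.46. The repressor CDF1 rose by 0.43 and 1.69 and CDF3 by 1.16 and 1.04. Against the rest, the activator FBH1 changed by -1.05 and -0.48, and FBH3 by -0.44 in the ZT27 set. The ZT45 response minus the ZT27 response passed as higher for 4 of the 12, as lower for 2, and did not pass for 6. Of all genes, 26.3% passed for this difference. FKF1 and CDF1 shared with CO a larger response in the ZT45 set (differences 1.56 and 1.25, adjusted p = 5.4e-09 and 3.1e-07), while GI had a smaller response there (-1.78, adjusted p = 6e-09).

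Of 10 regulators of CO protein, 7 rose and 3 fell in the ZT27 set, and 6 rose, 2 fell and 2 did not pass in the ZT45 set, with medians of 0.32 and 0.23. Of all genes, 27.6% and 20.2% rose and 28.9% and 15.5% fell, so the counts that fell were near those shares. The SPA genes, which with COP1 form the ubiquitin ligase that degrades CO in the dark, were among those that rose, SPA1 by 1.54 and 0.39, SPA3 by 0.74 and 0.48 and SPA4 by 1.06 and 0.87. The photoreceptor genes CRY1 (-0.71 and -0.37) and CRY2 (-0.44 and -0.35) fell in both sets, and PHYA (-0.41) fell in the ZT27 set. Of 5 NF-Y genes for subunits that recruit CO to DNA, 3 fell and 1 rose in the ZT27 set and 2 fell in the ZT45 set, with medians of -0.83 and -0.03. NF-YB3 (-2.60 and -1.13) and NF-YC4 (-1.98 and -0.77) fell in both, NF-YB2 (-0.83) fell in the ZT27 set, and NF-YC3 (0.71) rose there.

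Of 3 flowering targets of CO, FT and SOC1 had values. FT was scarce throughout, with group means from 0.821 to 2.4. In WT it rose in the ZT45 set, where CO rose, from 1.37 ± 0.177 to 2.31 ± 0.0529 (0.59 ± 0.17, adjusted p = 0.0081), and did not pass in the ZT27 set (0.27 ± 0.17, adjusted p = 0.18). In sig5-3, CO rose by 1.65 in the ZT45 set, and FT did not pass (0.17, adjusted p = 0.47), at 2.07 ± 0.216 unchilled and 2.4 ± 0.278 chilled. The genotype difference in this response of FT did not pass either. These values therefore do not show that FT responded differently in the genotypes. The part of CO in the changes of FT was not tested. SOC1 went the other way from FT in WT, with a rise in the ZT27 set from 12.5 ± 0.819 to 41.7 ± 0.644 (1.70 ± 0.24, adjusted p = 4.4e-06). Its change in the ZT45 set did not pass (0.20 ± 0.24, adjusted p = 0.55).

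**Figure D5:**
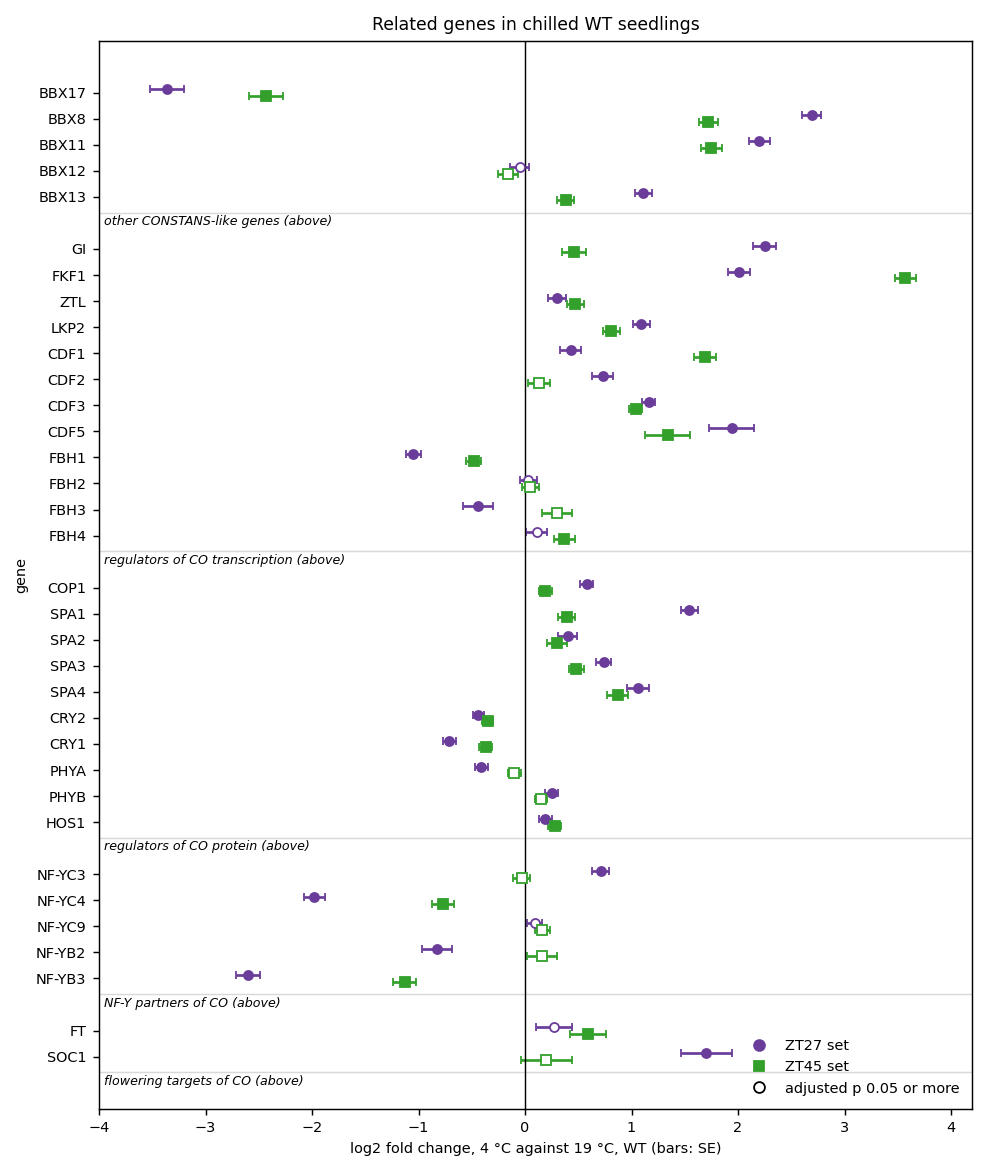
Log2 fold change of 4 °C against 19 °C in WT (horizontal axis, bars SE) for genes related to CO, with the ZT27 set in purple circles and the ZT45 set in green squares; open symbols mark an adjusted p of 0.05 or more. FKF1 and CDF1 lie further right in the ZT45 set, GI and SOC1 in the ZT27 set, and NF-YB3, NF-YC4 and BBX17 lie left of 0 in both.

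Annotated neighbours and sequence likeness bear on how far the values belong to single genes. The longest identical stretch between transcripts of any member pair was 35 bases, between COL3 and COL4, followed by 34 bases between BBX14 and BBX15. CO is overlapped on the opposite strand by AT5G15843 over 1967 bases, COL2 by AT3G02370 over 771 bases and by AT3G02390 over 688 bases, and BBX14 by AT1G68510 over 329 bases. Of these, AT3G02370 alone had values, with a mean of 2.32. Libraries were made with a stranded kit, but no source used here states whether strand was used in counting. For CO, COL2 and BBX14, reads from the opposite strand therefore cannot be told apart from their own. The search covered annotated messenger RNA exons only, so overlaps of any member with non-coding genes were not looked for.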

How the data were processed

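The authors deposited a signal per gene and library, namely read abundances normalized to each library. Reads were aligned to a genome named TAIR11 in the series' design text. STAR 2.4.1d and Partek 6.6 appear there and in the submitters' processing notes. Gene assignment, strand use and scaling method are not given in the sources used here. Library totals ran from 790711 to 1092052. Between 88.9% and 91.4% of values under 30 were whole multiples of a step per library (tolerance 0.05 steps), taken as the worth of 1 read. The rest were not, and no whole reads were recovered. The limit that a count of 0 allows, 3 reads, is worth 0.0688 to 0.1115 and covers counting error only.

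All 24 libraries and 17952 genes with values were fitted at log2(value + 0.5) with limma 3.58.1 (R 4.3.3; 8 group means, 16 residual degrees of freedom, trend and robust empirical Bayes), and p-values were adjusted by Benjamini-Hochberg in each comparison. The procedure was run on values simulated with independent normal noise and no library that stood apart. That run cannot show how the procedure behaves with such a library. All comparisons share the error estimate, chilling comparisons in one genotype and the time set comparisons share samples, and intervals are at 95%. No gene was filtered out beyond the 19384 without values, and all 10 members had a mean of at least 5. The lowest mean of a gene with values was 1.01, so shares of all genes cover genes from that level up. Names, coordinates and promoters came from RefSeq TAIR10.1, in which all 17952 genes were found. Tables were made with Python 3.11.15, pandas 2.3.3 and numpy 2.4.6, and figures with matplotlib 3.10.9.

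All members are named. From other lists, up to 4 genes per comparison with the smallest adjusted p, and those passing against most of their list, are named. BBX17 and other genes given in both sets for completeness, GI and CDF1 in the set where they fell outside that rule included, were added after their values were seen. Members and lists were chosen with earlier results of these data known. Labels describe replicates as independent, and same-numbered samples were not paired. Alternatives were pseudocounts of 2 and 0.1, a mean of at least 5, median-of-ratios scaling, plain empirical Bayes, a replicate block, only the compared groups, and each library left out.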

Additional observations from a re-analysis of the deposited data

Results flagged for a closer look

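The change with chilling differed between the ZT27 and ZT45 sets, by a test of the difference itself in limma, for 6 members in WT and for 5 in sig5-3, where 26.3% and 29.3% of all genes differed. In WT the ZT45 response minus the ZT27 response on the log2 scale was 1.36 for CO, -1.29 for COL1, 1.13 for COL2, -0.39 for COL3, -2.45 for COL5 and 0.62 for BBX16. In sig5-3 it was 1.03 for CO, -1.66 for COL1, 0.86 for COL2, -0.63 for COL3 and -2.14 for COL5. For CO, COL1, COL2, COL3 and COL5 the sign was the same in both genotypes. COL5 alone passed in opposite directions in the sets, higher in 3 of 3 chilled libraries against the unchilled ones in the ZT27 set and lower in 3 of 3 in the ZT45 set, in both genotypes. Start and length of chilling differ together between the sets and cannot be told apart.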

How the results depend on the processing

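All 110 member values of the chilling, time set, set difference and genotype mean comparisons kept direction and side of the threshold with a replicate block, a pseudocount of 0.1, a mean of at least 5 and median-of-ratios scaling, which moved the median of all genes by at most 0.037 in size. Plain empirical Bayes changed 1 call (BBX14 between sets in chilled WT, adjusted p = 0.061) and a pseudocount of 2 changed 1 (BBX16). With only the compared groups in the model, 3 calls were gained and 4 lost. Over libraries left out in turn, 2591 values stayed alike, 24 were lost, 7 were gained and 18 turned sign, all of those from values that did not pass. The cause was not tested. Values that turned sign ranged from -0.06 to 0.14 for COL3 and from -0.07 to 0.24 for COL4 (chilling, sig5-3 ZT27), from -0.14 to 0.04 for CO (time set, WT 19 °C), from -0.05 to 0.05 for BBX15 (time set, sig5-3 19 °C) and from -0.09 to 0.01 for COL1 (genotype mean). For the set difference in the sig5-3 response they ranged from -0.13 to 0.06 for BBX14, -0.27 to 0.05 for COL4 and -0.16 to 0.09 for COL9. Passing members numbered 0 to 3 with a library left out for genotype at 4 °C ZT27 and 1 to 2 for the genotype mean, and members past 1.5 numbered 3 to 4 in each chilling comparison. For genotype in single conditions and the genotype difference in response, only the number of passing members was recomputed, and outside 4 °C ZT27 it was 0 under every alternative run.

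With the replicate number as a block, 7 members passed in the WT ZT27 chilling comparison and 9 in the WT ZT45 one, as without it. Same-numbered samples did not deviate together, with correlations from -0.32 to 0.19 and no comparison in which all 3 exceeded 0.1. In 1 comparison (time set, sig5-3 19 °C) all 3 numbers correlated best with themselves, at 0.05 to 0.13.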
